A study of Homo sapiens with 12 samples.

Results

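Simple epithelial keratins are the intermediate filament proteins of single-layered epithelia such as the lining of the gut. The 6 genes described here (KRT7, KRT8, KRT18, KRT19, KRT20 and KRT23) were picked by symbol from a count table of 20015 genes, each Ensembl ID being matched to its symbol after removal of the version number. All 6 were found and all 6 passed the filter on low counts, against 13 of the 55 keratin genes of the table and 11323 genes of the whole table. They were measured by RNA sequencing in HT29, a line from a human colorectal adenocarcinoma, in cells that expressed the nuclease Cas9 and had been transduced with lentivirus. The 12 libraries formed 4 groups of 3. QRICH1 KO Tm cells carried a guide against QRICH1 and received tunicamycin (Tm) at 0.3 µg/ml for 14 h. QRICH1 KO DMSO cells carried that guide and received the solvent DMSO, WT Tm cells carried a non-targeting guide and received Tm, and WT DMSO cells carried the non-targeting guide and received DMSO. Control cells were therefore also Cas9-expressing and transduced. Whether the QRICH1 KO cells were a pool or 1 clone is not given in the sources used here. The series asked how QRICH1, a transcriptional regulator, shapes the response to endoplasmic reticulum stress, which tunicamycin causes by blocking N-linked glycosylation.

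Keratin filaments are obligate heteropolymers: an acidic type I keratin pairs with a basic type II keratin, and a chain left without a partner is degraded. In simple epithelia the main pair is KRT8 (type II) with KRT18 (type I). KRT19 and KRT20 are further type I partners of KRT8, KRT20 being a marker of differentiated intestinal cells, while KRT7 is a type II keratin typical of ductal and glandular epithelia and usually low in colorectal tumours. KRT23 is a less studied type I keratin. The filaments are anchored at desmosomes and hemidesmosomes, and they bear mechanical and other stress.

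KRT7 and KRT8, the type II members, were the most alike over their aligned coding sequences in GENCODE release 29, with 76.2% of bases identical, and the other pairs shared 58.5% to 66.6%. Few exact stretches were long: 1.14% of the 50-base windows of the KRT8 coding sequence, and none of those of KRT19, KRT20 and KRT23, occurred in another keratin gene. For KRT18 the share was 26.2%, since part of its coding sequence lies in exons of KRT8 on the opposite strand.

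KRT8 (ENSG00000170421.12) spans chr12:52897187-52949954 on the minus strand of hg38 and KRT18 (ENSG00000111057.11) spans chr12:52948871-52952901 on the plus strand, so that the 2 loci overlap over 1084 bases. Exons of both genes cover 525 of these. They include 375 bases of the KRT18 coding sequence (bases 43 to 417 of 1293), which 5 annotated KRT8 transcripts hold in reverse. The first 60 bases of that stretch are printed on the KRT18 strand because a read from them cannot be given to either gene without strand.
KRT18, coding bases 43 to 102: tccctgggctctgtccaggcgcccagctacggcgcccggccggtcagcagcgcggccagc
The Smart-seq2 and Nextera XT chemistry named in the labels marks no strand, and the rule by which the authors gave such reads to a gene is not given in the sources used here.

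KRT7 (ENSG00000135480.16) lies at chr12:52232520-52252186 on the plus strand, where it overlaps the antisense gene KRT7-AS, the keratin gene KRT86 and the pseudogene KRT87P. KRT19 (ENSG00000171345.13, chr17:41523617-41528308), KRT20 (ENSG00000171431.3, chr17:40875941-40885227) and KRT23 (ENSG00000108244.16, chr17:40922696-40937634) lie in the type I keratin cluster on the minus strand, and KRT23 lies wholly within an antisense gene, AC004231.1. KRT8 and KRT18 have many processed copies elsewhere in the genome, 50 and 67 annotated pseudogenes, and KRT19 has 5. None of these copies has a row in the table. Of the 50-base windows of the coding sequence, 48.3% recurred in a pseudogene for KRT8, 38.7% for KRT18, 2.08% for KRT19 and 0% for KRT20. These shares depended on the window. In the same gene order they were 81.1%, 81.9%, 18.7% and 0% at 25 bases and 23.4%, 7.14%, 0% and 0% at 75 bases. How reads that map to several places were counted is not given, so absolute levels of KRT8 and KRT18 are less certain than those of KRT19 and KRT20.

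Library totals ranged from 6856736 to 17861844 counts, and a count of 0 allows a level of up to 3 counts, which was 0.168 to 0.438 CPM (counts per 1000000) by counting error alone. Between 13124 and 14094 genes had counts in 10 libraries, against 14813 in QRICH1 KO Tm library 3 and 15340 in QRICH1 KO DMSO library 3. Levels are CPM scaled by TMM factors. QRICH1 itself was at 19.2 to 26.8 CPM in QRICH1 KO Tm and 25.7 to 31.1 CPM in WT Tm, and at 23.3 to 24.8 CPM in QRICH1 KO DMSO and 22.7 to 35.0 CPM in WT DMSO. Counts over a whole gene do not show a small deletion or insertion at a guide's cut, so these values do not check the labels. EPCAM, CDH1, LGALS4 and VIL1, markers of colon epithelium, averaged 1680, 170, 345 and 65.9 CPM over the 12 libraries, while the other 6 colon markers, among them CDX1, CDX2 and CDH17, averaged 1.29 CPM or less. Fibroblast markers summed to 0.136 to 1.82 CPM, endothelial ones to 0.152 to 3.04 CPM and squamous ones to 2.70 to 7.01 CPM. The leukocyte list summed to 1834 to 2653 CPM, nearly all of it LYZ, while PTPRC was at 0 in 9 libraries and CD3E in all 12.

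KRT8 was the most abundant gene of every library. It had 46490, 45635 and 36562 CPM in QRICH1 KO Tm libraries 1 to 3 and 56230, 54762 and 43613 CPM in QRICH1 KO DMSO. WT Tm libraries 1 to 3 had 34074, 44234 and 38394 CPM, and WT DMSO had 59636, 43834 and 37251 CPM. The Tm and DMSO libraries overlapped in both genotypes, and WT DMSO library 1 was the highest of all 12. Its type I partner KRT18 had 27832, 28005 and 22052 CPM in QRICH1 KO Tm and 32011, 31093 and 23941 CPM in QRICH1 KO DMSO. KRT18 stood at 20206, 26177 and 21958 CPM in WT Tm and at 32853, 25566 and 22541 CPM in WT DMSO. KRT18 followed KRT8 library by library: it was the second most abundant gene in 9 libraries and ranked 3 or 4 in the 3 WT Tm libraries.

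KRT19, which lacks the tail domain that other keratins have, was the third member by level per length. It had 2648, 2695 and 1985 CPM in QRICH1 KO Tm and 4228, 4046 and 2882 CPM in QRICH1 KO DMSO. It had 1711, 2449 and 2067 CPM in WT Tm and 4254, 2982 and 2463 CPM in WT DMSO. Every Tm library was below every DMSO library of its genotype, in WT by a small margin (2449 against 2463 CPM). KRT20 had 473, 464 and 383 CPM in QRICH1 KO Tm and 498, 438 and 354 CPM in QRICH1 KO DMSO, against 272, 331 and 358 CPM in WT Tm and 413, 298 and 308 CPM in WT DMSO. The 3 QRICH1 KO Tm libraries were all above the 3 WT Tm libraries for KRT20, while QRICH1 KO DMSO and WT DMSO overlapped.

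KRT7 and KRT23 were near the floor of the measurement. KRT7 had 2.14, 1.99 and 3.02 CPM in QRICH1 KO Tm and 1.70, 1.46 and 1.88 CPM in QRICH1 KO DMSO, against 1.90, 2.28 and 2.58 CPM in WT Tm and 1.36, 2.13 and 1.93 CPM in WT DMSO, from 10 to 38 reads a library. KRT23 rested on 7, 5 and 2 reads in QRICH1 KO Tm and on 7, 12 and 18 in QRICH1 KO DMSO, against 14, 7 and 6 reads in WT Tm and 11, 3 and 14 in WT DMSO. The groups overlapped for KRT23. Both genes overlap others on the genome, and without strand the counts do not show from which gene such reads came.

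**Figure D1:**
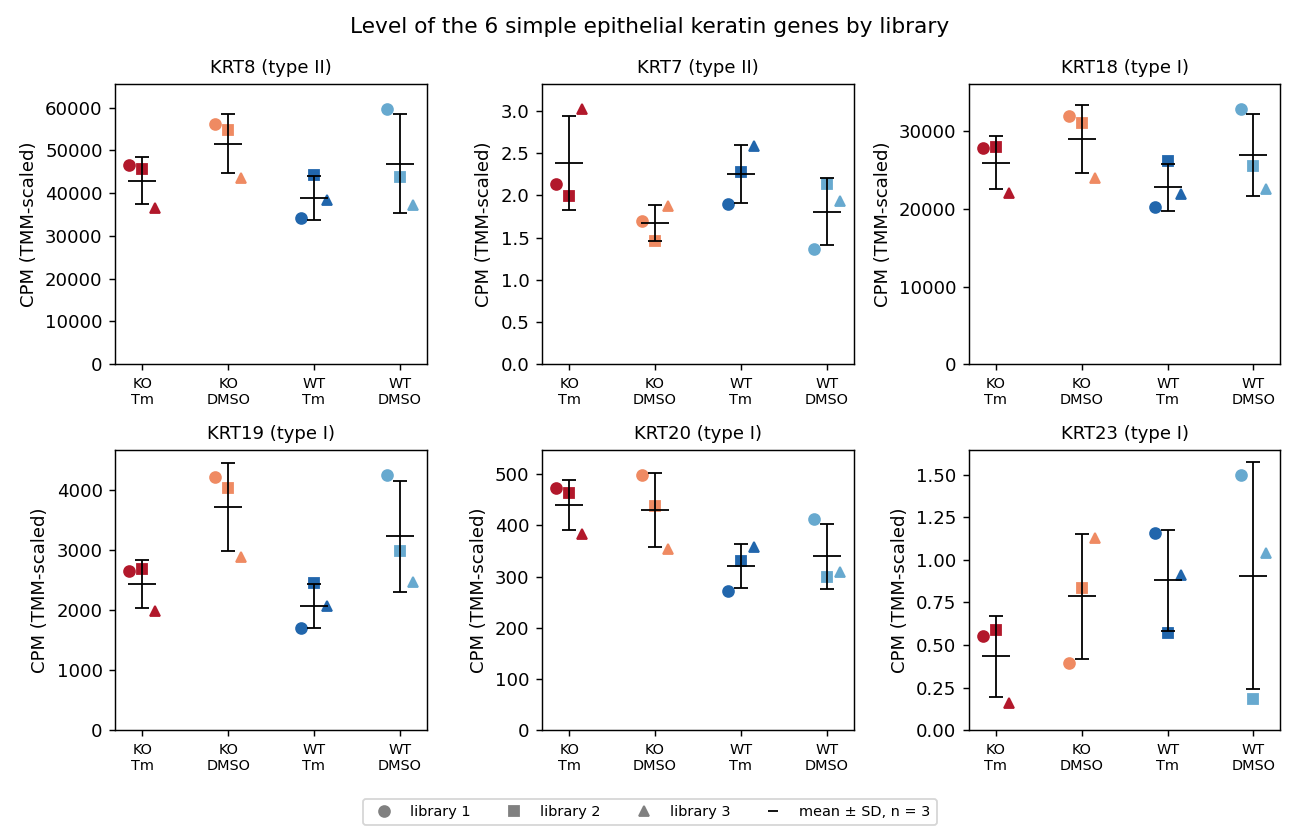
CPM of each keratin gene (vertical axis, from 0) in the 3 libraries of each group, with the group mean and SD. The KRT19 points of both Tm groups lie below those of the DMSO group of the same genotype, and in QRICH1 KO the triangles (library 3) are the lowest for KRT8, KRT18, KRT19 and KRT20.

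Library 3 of both QRICH1 KO groups, the pair with the most genes with counts, had the lowest KRT8, KRT18, KRT19 and KRT20 of its group, and WT DMSO library 1 had the highest of its group for the same 4 genes. Part of the spread within groups was thus shared by the 4 abundant members. Their coefficient of variation within a group was 11.3% to 28.5%, with the highest value for KRT19 in WT DMSO, and that of KRT23 was 33.5% to 73.6%. The part of RNA quality or depth in this was not tested.

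Levels of different genes were compared per kilobase. On the scale of CPM per kilobase of coding length, the group mean of KRT8 was 27980 ± 3590 in QRICH1 KO Tm, 33620 ± 4500 in QRICH1 KO DMSO, 25380 ± 3330 in WT Tm and 30600 ± 7500 in WT DMSO (SD, n = 3 each). KRT18 was next on that scale, at 20130 ± 2630, 22490 ± 3430, 17660 ± 2380 and 20920 ± 4110 in the same group order. On the scale of CPM per kilobase of all annotated exons the order of the pair turned round, since the exons annotated to KRT8 cover 6881 bases and those of KRT18 cover 3218: KRT8 was at 6234 ± 800 and KRT18 at 8068 ± 1050 in QRICH1 KO Tm, and KRT8 was at 6817 ± 1670 and KRT18 at 8386 ± 1650 in WT DMSO. Which of the 2 partners is the more abundant therefore depended on the length used and cannot be told from gene counts.

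The order of the remaining members was the same on both length scales. Over the 12 libraries, and per kilobase of coding length, KRT19 ranged from 1426 to 3545 CPM, KRT20 from 214 to 392 CPM, KRT7 from 0.967 to 2.15 CPM and KRT23 from 0.126 to 1.18 CPM. KRT8 (22230 to 38900 CPM) and KRT18 (15660 to 25470 CPM) overlapped, as did KRT7 and KRT23, and the other neighbours in this order did not. KRT20 thus stood below KRT19 and above KRT7 in every library.

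**Figure D2:**
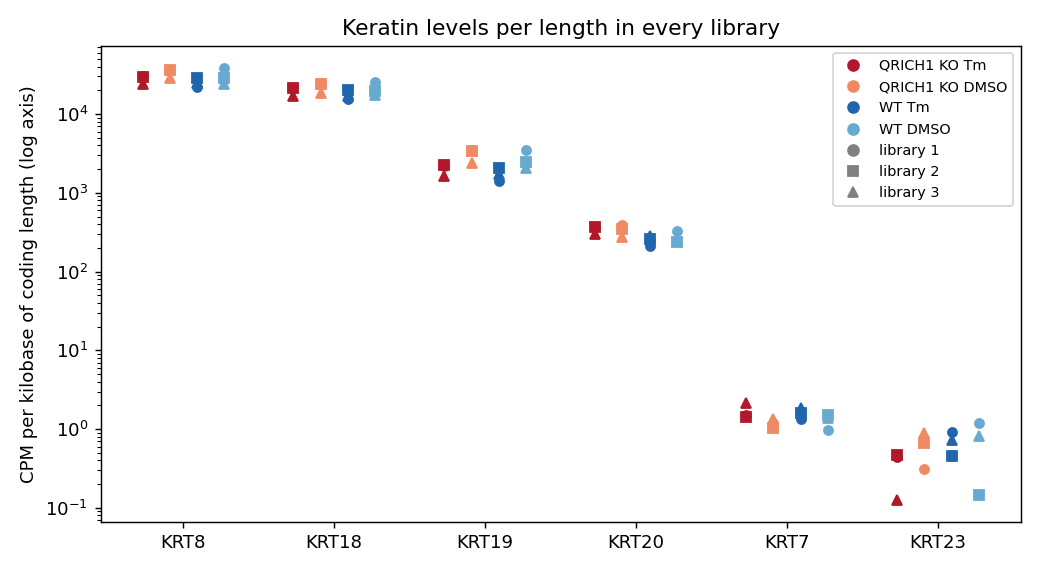
CPM per kilobase of coding length (log axis) for each keratin gene, 1 point per library, coloured by group. KRT8 and KRT18 lie together at the top, KRT19 and KRT20 form separate steps below, and KRT7 and KRT23 overlap at about 1 CPM per kilobase.

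The balance of type I to type II keratin RNA, the sum over KRT18, KRT19, KRT20 and KRT23 divided by the sum over KRT7 and KRT8, varied little. Per kilobase of exons it was 1.499 ± 0.0214 in QRICH1 KO Tm, 1.44 ± 0.0396 in QRICH1 KO DMSO, 1.44 ± 0.0208 in WT Tm and 1.47 ± 0.0526 in WT DMSO (SD, n = 3 each). Per kilobase of coding length it was 0.804 ± 0.0112, 0.770 ± 0.0201, 0.774 ± 0.0124 and 0.785 ± 0.0298 in the same group order. Whether type I or type II RNA was in excess thus depended on the length. On the exonic scale the libraries of Tm and DMSO overlapped in WT (1.42 to 1.46 in WT Tm and 1.41 to 1.52 in WT DMSO). In QRICH1 KO they did not overlap, at 1.49 to 1.52 in QRICH1 KO Tm and 1.40 to 1.47 in QRICH1 KO DMSO. The balance is a sum over the members and was given no test.

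Within this balance the shares of the type I members differed on average between Tm and DMSO libraries. Read count ratios within a library do not depend on how libraries are scaled to each other. For each read of KRT8 there were 0.0543 to 0.0591 reads of KRT19 in QRICH1 KO Tm and 0.0661 to 0.0752 in QRICH1 KO DMSO, and 0.0502 to 0.0554 in WT Tm and 0.0661 to 0.0713 in WT DMSO. Tm and DMSO libraries thus did not overlap in either genotype, so that in these libraries KRT19 was lower relative to KRT8, and not only in CPM. The ratios were given no test. How many other genes have a ratio to KRT8 that keeps the treatments apart was not counted. The ratio of KRT20 to KRT8 was 0.0102 to 0.0105 in QRICH1 KO Tm and 0.00801 to 0.00886 in QRICH1 KO DMSO, against 0.00749 to 0.00932 in WT Tm and 0.00681 to 0.00828 in WT DMSO. QRICH1 KO Tm was above every other library in this ratio. For each read of KRT8 there were 0.599 to 0.614 reads of KRT18 in QRICH1 KO Tm and 0.549 to 0.569 in QRICH1 KO DMSO, and 0.572 to 0.593 in WT Tm and 0.551 to 0.605 in WT DMSO. For KRT18 the treatments were thus apart in QRICH1 KO and overlapped in WT.

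Per kilobase of coding length KRT18 made up 89.4% ± 0.258 of the type I RNA in QRICH1 KO Tm, 86.8% ± 0.523 in QRICH1 KO DMSO, 89.9% ± 0.536 in WT Tm and 87.7% ± 0.813 in WT DMSO (SD, n = 3 each). The share of KRT19 was 9.02% ± 0.295 in QRICH1 KO Tm and 11.9% ± 0.513 in QRICH1 KO DMSO, and 8.78% ± 0.464 in WT Tm and 11.2% ± 0.858 in WT DMSO. KRT20 gave 1.54% ± 0.0405 in QRICH1 KO Tm and 1.31% ± 0.0628 in QRICH1 KO DMSO, and 1.29% ± 0.169 in WT Tm and 1.13% ± 0.0938 in WT DMSO. For each read of KRT19 there were 0.172 to 0.193 reads of KRT20 in QRICH1 KO Tm, against 0.108 to 0.123 in QRICH1 KO DMSO, and 0.135 to 0.173 in WT Tm, against 0.0971 to 0.125 in WT DMSO. Every Tm library was thus above every DMSO library of its genotype in KRT20 relative to KRT19. The KRT18 share, the KRT19 share and this ratio all hold the KRT19 counts, so they are not separate results, and none was tested.

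**Figure D3:**
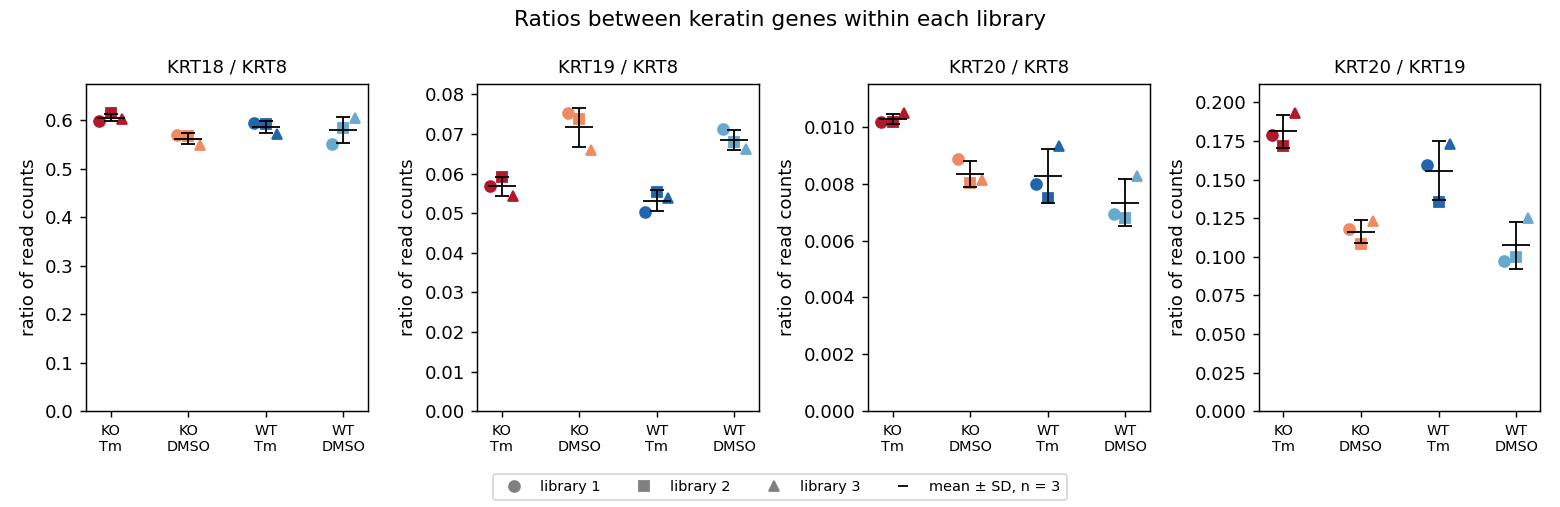
Ratios of read counts between keratin genes in each library (vertical axes, from 0), with group means and SD. KRT19 over KRT8 separates Tm from DMSO in both genotypes, and KRT20 over KRT8 is highest in the 3 QRICH1 KO Tm libraries.

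The 6 genes together took 6.22% to 7.39% of all counts in QRICH1 KO Tm and 7.92% to 9.25% in QRICH1 KO DMSO, and 5.50% to 6.32% in WT Tm and 6.96% to 9.48% in WT DMSO. KRT8 and KRT18 made up 94.9% to 96.5% of these counts. In each genotype the keratin share of the library was lower in every Tm library than in every DMSO library. A share of counts also moves with all other genes. On total counts the median log2 fold change of all genes under Tm was -0.107 in QRICH1 KO and -0.21 in WT. In TMM-scaled CPM the Tm and DMSO libraries overlapped for KRT8 and KRT18 in both genotypes. In bulk samples, fewer cells of a type and less RNA per cell cannot be told apart.

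The first comparison asked how the keratins respond to Tm in cells that carry the QRICH1 guide. KRT19 fell and none of the other 5 genes was called. KRT19 averaged 2443 ± 397 CPM in QRICH1 KO Tm and 3719 ± 731 CPM in QRICH1 KO DMSO (SD, n = 3 each), a log2 fold change of -0.61 with a standard error of 0.194, or 1.52-fold lower (adjusted p = 0.0408, edgeR's quasi-likelihood test with Benjamini-Hochberg adjustment over 11323 genes). Of all genes tested, 15.6% were called in this comparison, 9.09% higher and 6.53% lower. The count of 1 in 6 keratins has to be read against that background. The median log2 fold change of the 6 was -0.212, against -0.00387 over all genes tested. The colon epithelium markers summed to 2255 to 2676 CPM in QRICH1 KO Tm and 2002 to 2254 CPM in QRICH1 KO DMSO, and to 2341 to 2466 CPM in WT Tm and 1942 to 2152 CPM in WT DMSO. EPCAM and LGALS4 made up most of these sums, and the markers did not move together. LGALS4 rose in QRICH1 KO (log2 fold change 0.74, adjusted p = 0.00118) and in WT (0.98, adjusted p = 3.79e-05, edgeR), while EPCAM was called in neither (0.12 and 0.15). VIL1 fell in WT, to 49.4 ± 4.44 CPM in WT Tm, against 86.0 ± 3.46 CPM in WT DMSO (-0.80, adjusted p = 6.02e-05), and had 57.95 ± 7.67 CPM in QRICH1 KO Tm and 70.35 ± 3.84 CPM in QRICH1 KO DMSO (-0.28, adjusted p = 0.121). The part of these markers in the KRT19 result was not tested.

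The KRT19 call in QRICH1 KO lay near the threshold. It was lost without QRICH1 KO Tm library 1 (adjusted p = 0.0572 in the same edgeR test), library 2 (0.0665) or library 3 (0.167), when QRICH1 KO DMSO lacked library 1 (0.141) or library 2 (0.147), and also without WT Tm library 3 (0.0571) or WT DMSO library 2 (0.0545), which enter through the shared spread. It held in 13 of 20 alternatives, the log2 fold change stayed between -0.76 and -0.48 in all 20, and without library 3 of both QRICH1 KO groups it was -0.63 (adjusted p = 0.0484). Every QRICH1 KO Tm library was below every QRICH1 KO DMSO library for KRT19, as for 15.5% of all genes. KRT7 was higher in every QRICH1 KO Tm library than in every QRICH1 KO DMSO library, as were 16.9% of all genes, with a log2 fold change of 0.51 and a standard error of 0.339 (adjusted p = 0.345, edgeR).

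The same question in WT cells gave a similar picture. KRT19 fell to 2075 ± 369 CPM in WT Tm, against 3233 ± 922 CPM in WT DMSO (SD, n = 3 each), a log2 fold change of -0.64 with a standard error of 0.194, or 1.56-fold lower (adjusted p = 0.0220, edgeR's quasi-likelihood test with Benjamini-Hochberg adjustment). None of the other 5 genes was called. In this comparison 23.8% of all genes tested were called, 12.6% higher and 11.1% lower, and 18.5% had every WT Tm library below every WT DMSO library, as KRT19 had. The median log2 fold change of the 6 keratins was -0.164, against -0.0239 over all genes tested. The KRT19 call was lost without WT Tm library 1 (adjusted p = 0.112), WT Tm library 3 (0.0663) or WT DMSO library 1 (0.148), and it held in the other 17 of 20 alternatives, with a log2 fold change between -0.81 and -0.39 in all 20.

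KRT8 and KRT18 were lower on average under Tm in both genotypes, by less than the test, which has no block for replicate number, could call. In QRICH1 KO each Tm library was below the DMSO library of the same number for both genes. Same-numbered libraries of WT went both ways. These pairs were not tested within a genotype. A fit with a replicate block over all 12 libraries called neither gene in either genotype, though WT Tm libraries went with other numbers. KRT8 had a log2 fold change of -0.26 (95% interval -0.63 to 0.10, adjusted p = 0.344) in QRICH1 KO and of -0.27 (-0.64 to 0.096, adjusted p = 0.293) in WT. KRT18 had -0.16 (-0.51 to 0.19, adjusted p = 0.575) in QRICH1 KO and -0.24 (-0.59 to 0.10, adjusted p = 0.318) in WT, all from edgeR. These calls turned on the scaling of libraries. With libraries scaled to their total counts alone, in place of TMM, KRT8 was called lower in QRICH1 KO (log2 fold change -0.365, adjusted p = 0.0282) and in WT (-0.44, adjusted p = 0.00595), and KRT18 was called lower in WT (-0.42, adjusted p = 0.00479). That scaling moved the median of all genes by -0.102 in QRICH1 KO and by -0.185 in WT, and the split of all calls to 700 higher and 1226 lower in QRICH1 KO (1029 and 739 with TMM) and to 893 higher and 2245 lower in WT (1431 and 1259 with TMM). Relative to the median gene, the values of both partners were nearly the same on either scale.

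KRT20 was not called under Tm. Its log2 fold change under Tm was 0.031 (95% interval -0.28 to 0.35) in QRICH1 KO and -0.084 (-0.40 to 0.23) in WT, and neither was called by edgeR (adjusted p = 0.921 and 0.747). In QRICH1 KO its sign turned with total-count scaling, to -0.067. The 95% intervals of KRT19, -1.01 to -0.20 in QRICH1 KO and -1.05 to -0.23 in WT, overlap those of KRT20, and the difference between the changes of the 2 genes was not tested. KRT7 had 0.27 (-0.47 to 1.005) in WT, where its libraries overlapped. KRT23 had wide intervals, from -2.39 to 0.65 in QRICH1 KO and from -1.359 to 1.504 in WT on the log2 scale, which the few reads allow.

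**Figure D4:**
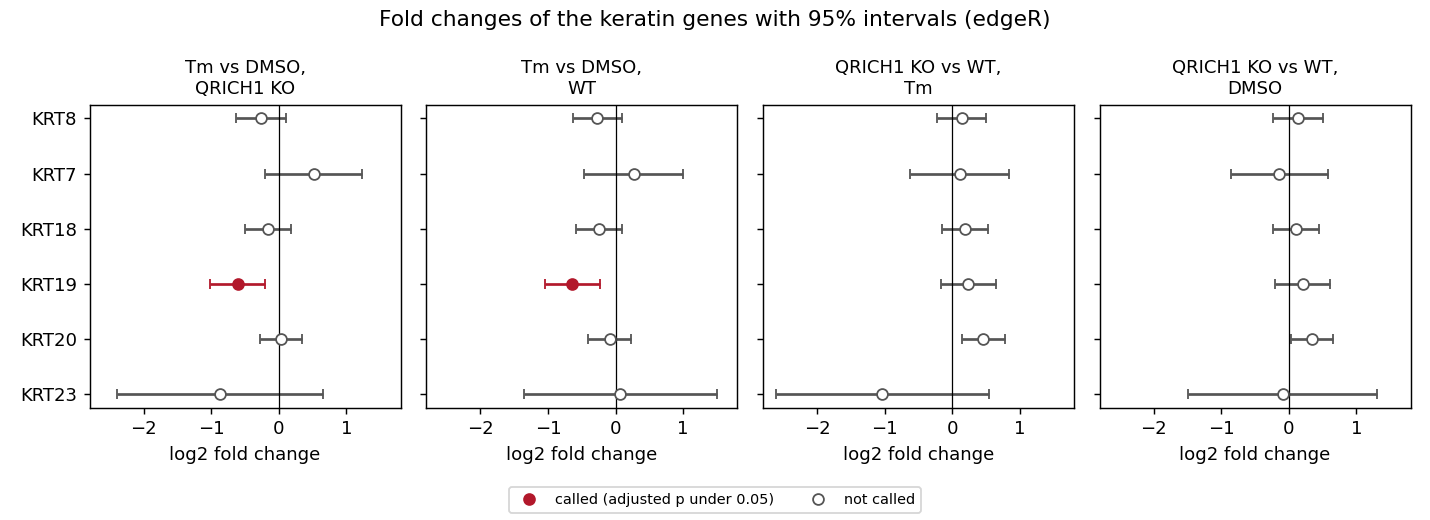
Log2 fold change (horizontal axis) of each keratin gene in 4 comparisons, with 95% intervals from the edgeR fit to 12 libraries. The only filled points, called at an adjusted p under 0.05, are KRT19 under Tm in QRICH1 KO (-0.61) and in WT (-0.64).

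Whether QRICH1 loss alters keratin RNA was asked next, first under Tm. None of the 6 genes was called between QRICH1 KO Tm and WT Tm, where 1.17% of all genes tested were, 0.406% higher and 0.760% lower. KRT20 came closest. It averaged 439.9 ± 49.7 CPM in QRICH1 KO Tm and 320.5 ± 43.7 CPM in WT Tm (SD, n = 3 each), a log2 fold change of 0.46 with a standard error of 0.151 and a 95% interval of 0.14 to 0.77 (adjusted p = 0.172, edgeR's quasi-likelihood test with Benjamini-Hochberg adjustment). All 3 QRICH1 KO Tm libraries were above all 3 WT Tm libraries for KRT20, as for 9.41% of all genes tested. It was called with total-count scaling (log2 fold change 0.515, adjusted p = 0.0494) and without a filter on low counts (0.45, adjusted p = 0.0216), and in none of the other 18 alternatives. The sign of its difference held in all 20.

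KRT8, KRT18 and KRT19 had smaller differences between the genotypes under Tm. KRT8 had a log2 fold change of 0.14 (95% interval -0.22 to 0.51), KRT18 of 0.19 (-0.16 to 0.54) and KRT19 of 0.23 (-0.17 to 0.64). KRT7 had 0.11 (-0.62 to 0.83) and KRT23 had -1.04 (-2.61 to 0.54), KRT23 from few reads. Each of these intervals includes 0. The medians were 0.165 over the 6 genes and 0.00972 over all genes tested.

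Without Tm none of the 6 was called between QRICH1 KO DMSO and WT DMSO. Few genes of any kind were: 0.0971% of all genes tested, 0.0177% higher and 0.0795% lower. KRT20 averaged 430.4 ± 72.3 CPM in QRICH1 KO DMSO and 339.9 ± 63.5 CPM in WT DMSO (SD, n = 3 each), with a log2 fold change of 0.34 and a 95% interval of 0.026 to 0.66 (adjusted p = 0.516, edgeR). KRT8 was at 0.14 (95% interval -0.23 to 0.50), KRT18 at 0.10 (-0.24 to 0.45) and KRT19 at 0.20 (-0.20 to 0.61) on the log2 scale. KRT7 was at -0.14 (-0.86 to 0.58) and KRT23 at -0.093 (-1.497 to 1.311). The comparisons of genotypes share no library with each other, but each shares 3 libraries with each comparison of treatments.

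The last test asked whether the Tm response differs between the genotypes. The interaction was not called for any of the 6 genes, and for 0% of all genes tested. That count of 0 from edgeR's quasi-likelihood test stood beside 774 genes at an unadjusted p under 0.05, and DESeq2 called 46. The Tm response of KRT19 in QRICH1 KO less that in WT was 0.033 on the log2 scale (95% interval -0.54 to 0.61), and that of KRT20 was 0.12 (-0.33 to 0.56). KRT8 was at 0.0053 (-0.51 to 0.52) and KRT18 at 0.084 (-0.41 to 0.57), while KRT7 (-0.78 to 1.27) and KRT23 (-3.04 to 1.16) had wide intervals. The intervals show which differences in either direction the 3 libraries a group leave possible.

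Genes whose pattern over the 12 libraries was most like that of a keratin were picked by the root mean square difference of centred log2 CPM among 6946 genes with a mean of at least 10 CPM. KRT8 and KRT18 differed by 0.0508 from each other. The nearest to KRT8 were TKT (transketolase, 0.0496), ENO1 (enolase, 0.0678) and CCT5 (a subunit of the cytosolic chaperonin, 0.0684), against a median of 0.330 over the candidates. CCT5 (0.0574), CCT3 (0.0654) and RHBDF1 (0.0680) were nearest to KRT18. Nearest to KRT19 were GPI (glucose-6-phosphate isomerase, 0.0996), LMNA (0.110) and PLEKHJ1 (0.116), against a median of 0.460 over the candidates. These differences are larger than those of KRT8 and KRT18, but KRT19 itself varied more. Its SD of log2 CPM was 0.429, against 0.257 for KRT8 and 0.233 for KRT18. For KRT20 they were GNB2 (0.121), MEA1 (0.126) and E2F4 (0.128), for KRT7 PTP4A2 (0.143), ATP6V0A1 (0.144) and TRMT5 (0.15), and for KRT23 SDHAF3 (0.569), SNX12 (0.580) and JUN (0.582). KRT19 and KRT20 differed by 0.331, which is further apart than KRT19 and KRT8 (0.190).

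Of the other keratin genes of the table, 5 of 25 type I and 2 of 24 type II genes passed the filter on low counts. Under Tm in QRICH1 KO 1 type I gene fell and none rose, and in WT 1 fell and 2 rose, where 15.6% and 23.8% of all genes tested were called. KRT13, a keratin of stratified mucosa, had 54.3 ± 9.82 CPM in QRICH1 KO Tm and 77.25 ± 10.4 CPM in QRICH1 KO DMSO (log2 fold change -0.51, adjusted p = 0.0169), and 38.0 ± 4.22 CPM in WT Tm and 65.7 ± 2.72 CPM in WT DMSO (-0.79, adjusted p = 0.000424, edgeR). In QRICH1 KO this call was lost without QRICH1 KO Tm library 2 (0.0831) or 3 (0.0897) or QRICH1 KO DMSO library 1 (0.0936). KRT13 thus moved the same way as KRT19. KRT17, a keratin induced in stressed and wounded epithelium, went the other way in WT, with 74.6 ± 13.9 CPM in WT Tm and 35.2 ± 4.05 CPM in WT DMSO (log2 fold change 1.09, adjusted p = 9.79e-05).

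KRT17 was also the 1 keratin gene of 13 tested that was called between genotypes. That call was under Tm, where 1.17% of all genes tested were called and 0.760% were called lower. Under DMSO, where 0.0971% of all genes tested were called, no keratin gene was. It had 39.8 ± 4.90 CPM in QRICH1 KO Tm and 74.6 ± 13.9 CPM in WT Tm (SD, n = 3 each), a log2 fold change of -0.91 with a standard error of 0.167 (adjusted p = 0.0104, edgeR). That call was lost without QRICH1 KO Tm library 2 (0.0773), QRICH1 KO Tm library 3 (0.0509) or WT Tm library 2 (0.0647). Under Tm in QRICH1 KO its log2 fold change was 0.34 (adjusted p = 0.192). The interaction was not called by edgeR for KRT17 or any other gene, so its Tm responses were not shown to differ between genotypes. KRT10, a keratin of the upper epidermis and the other type I gene that rose in WT, was at 4.55 CPM on average and is named, after its values were seen, to complete the count. Its log2 fold change was 0.79 (adjusted p = 0.0305), and the number that rose in WT was 1 without WT Tm library 1 or 2 or WT DMSO library 1 or 3. KRT80, a type II keratin more abundant here than KRT7, had 176.8 ± 8.97 CPM in QRICH1 KO Tm, 212.4 ± 14.2 in QRICH1 KO DMSO, 178.5 ± 16.9 in WT Tm and 176.2 ± 14 in WT DMSO, and was called in no comparison.

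Desmosome and plakin genes, whose products tie keratin filaments to cell junctions, fell under Tm or were not called. Of 14 tested genes of 20 listed, 5 fell in QRICH1 KO and 6 in WT and none rose, with median log2 fold changes of -0.255 in QRICH1 KO and -0.301 in WT, against -0.00387 and -0.0239 over all genes tested. Of all genes tested, 6.53% were called lower in QRICH1 KO and 11.1% in WT. Envoplakin (EVPL), a plakin that binds keratins, had 11.99 ± 3.48 CPM in QRICH1 KO Tm and 25.4 ± 3.92 CPM in QRICH1 KO DMSO (log2 fold change -1.07, adjusted p = 0.000917), and 11.2 ± 1.77 CPM in WT Tm and 27.7 ± 3.52 CPM in WT DMSO (-1.33, adjusted p = 7.76e-05, edgeR). Epiplakin (EPPK1), which binds the KRT8 and KRT18 network, had log2 fold changes of -0.61 (adjusted p = 0.0126) in QRICH1 KO and -1.23 (1.8e-05) in WT. Plakophilin 3 (PKP3) had -0.91 (adjusted p = 0.00417) in QRICH1 KO and -0.63 (0.0281) in WT. The EPPK1 call in QRICH1 KO was lost without QRICH1 KO Tm library 3 (0.0639), QRICH1 KO DMSO library 1 (0.0535) or library 2 (0.0705). The PKP3 call in WT was lost without WT Tm library 1 (0.108) or 3 (0.105) or WT DMSO library 1 (0.0530) or 3 (0.111). The number that fell in QRICH1 KO was 2 without QRICH1 KO DMSO library 1 or 2, and 3 when QRICH1 KO Tm library 1 was left out.

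Between genotypes under Tm, 2 of the 14 desmosome and plakin genes were called, both higher in QRICH1 KO, against 0.406% of all genes tested called higher. EPPK1 had 50.8 ± 5.09 CPM in QRICH1 KO Tm and 31.0 ± 5.43 CPM in WT Tm (log2 fold change 0.71, adjusted p = 0.0415, edgeR), and PERP, a desmosomal membrane protein, had 274 ± 21.5 CPM in QRICH1 KO Tm and 200.3 ± 20.8 CPM in WT Tm (0.45, adjusted p = 0.0445). Both calls were fragile, that of EPPK1 being lost in 8 of 20 alternatives and that of PERP in 13. With DESeq2's size factors in edgeR the adjusted p was 0.0519 for EPPK1 and 0.0534 for PERP. PERP had 0.0703 with total counts, 0.0716 with the compared groups alone and 0.088 without library 3 of both QRICH1 KO groups. Leaving out 1 library at a time, the adjusted p of EPPK1 was 0.154, 0.157 and 0.0523 without QRICH1 KO Tm libraries 1 to 3, 0.205 and 0.163 without WT Tm libraries 1 and 3, 0.0618 without QRICH1 KO DMSO library 2 and 0.0648 without WT DMSO library 2. That of PERP was 0.0632, 0.205 and 0.0988 without QRICH1 KO Tm libraries 1 to 3, 0.15, 0.172 and 0.0535 without WT Tm libraries 1 to 3, 0.0543 and 0.0766 without QRICH1 KO DMSO libraries 1 and 2, and 0.0733 without WT DMSO library 2.

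Of 7 hemidesmosome genes, all tested, 2 rose and 1 fell in QRICH1 KO, where 9.09% of all genes tested were called higher and 6.53% lower, and 3 rose and 1 fell in WT, where the shares were 12.6% and 11.1%. Their median log2 fold change was 0.0213 in QRICH1 KO and 0.112 in WT. LAMB3, a chain of laminin-332, which hemidesmosomes bind, rose in both genotypes. It had 327 ± 24.3 CPM in QRICH1 KO Tm and 169 ± 13.5 CPM in QRICH1 KO DMSO (log2 fold change 0.95, adjusted p = 5.51e-06), and 412 ± 24.2 CPM in WT Tm and 163 ± 17.5 CPM in WT DMSO (1.33, adjusted p = 4.45e-08, edgeR). ITGB4, the integrin chain that binds plectin, fell by 0.44 in QRICH1 KO (adjusted p = 0.0213) and by 0.58 in WT (adjusted p = 0.00204) on the log2 scale. In QRICH1 KO the ITGB4 call was lost without QRICH1 KO Tm library 2 (0.0551) or 3 (0.104) or QRICH1 KO DMSO library 1 (0.0772) or 2 (0.0859). The number that rose in QRICH1 KO was 1 without QRICH1 KO Tm library 1 or 3, any QRICH1 KO DMSO library, WT Tm library 3 or WT DMSO library 2, and the number that rose in WT was 1 without WT Tm library 1 or WT DMSO library 2 or 3. LAMA3, also a laminin-332 chain, had a log2 fold change of 0.94 in WT (adjusted p = 0.0368, edgeR). That call was lost without WT Tm library 1 (0.217) or 3 (0.0667) or WT DMSO library 1 (0.108), 2 (0.0720) or 3 (0.0721), and with total counts in place of TMM scaling (0.143).

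Of 18 tested genes whose products bind or modify keratins, 2 rose and 2 fell in QRICH1 KO, and 3 rose and 2 fell in WT. These counts stand beside 15.6% of all genes tested called in QRICH1 KO and 23.8% in WT, and the list's median log2 fold changes were -0.158 in QRICH1 KO and -0.129 in WT. HSPB1, a small heat shock protein that associates with keratin filaments, had 29.5 ± 5.93 CPM in QRICH1 KO Tm and 62.25 ± 8.75 CPM in QRICH1 KO DMSO (log2 fold change -1.07, adjusted p = 0.00012), and 20.2 ± 2.85 CPM in WT Tm and 45.7 ± 6.56 CPM in WT DMSO (-1.18, adjusted p = 3.7e-05, edgeR). CASP6, a caspase that cleaves KRT18, fell by 0.67 in QRICH1 KO (adjusted p = 0.0110) and by 0.95 in WT (adjusted p = 0.000573) on the log2 scale. CSNK1A1, a casein kinase that FAM83H recruits to keratin filaments, rose with log2 fold changes of 0.58 in QRICH1 KO (adjusted p = 0.00152) and 0.71 in WT (adjusted p = 0.000121). The CASP6 call in QRICH1 KO was lost without QRICH1 KO Tm library 3 (0.0586) or QRICH1 KO DMSO library 1 (0.0540). The number that rose in QRICH1 KO was 1 without library 2 or 3 of QRICH1 KO Tm or of QRICH1 KO DMSO, and in WT it was 1 without WT Tm library 1 or WT DMSO library 2.

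Of the nuclear lamins, the other intermediate filament genes that passed the filter, all 3 fell under Tm in QRICH1 KO and 2 of 3 in WT, where 6.53% and 11.1% of all genes tested were called lower. LMNB1 had 36.25 ± 4.61 CPM in QRICH1 KO Tm and 61.1 ± 6.26 CPM in QRICH1 KO DMSO (log2 fold change -0.76, adjusted p = 0.00148), and 28.3 ± 3.63 CPM in WT Tm and 56.9 ± 10.3 CPM in WT DMSO (-1.02, adjusted p = 5.38e-05, edgeR). LMNB2 had log2 fold changes of -0.57 in QRICH1 KO (adjusted p = 0.0101) and -0.63 in WT (0.00341), and LMNA had -0.56 in QRICH1 KO (0.0328). The number that fell in QRICH1 KO was 1 without QRICH1 KO Tm library 3 or QRICH1 KO DMSO library 1 or 2. Vimentin (VIM), the filament protein of mesenchymal cells, was at 0 in 6 libraries and at most at 0.277 CPM.

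Among 17 tested epithelial transcription factors, GRHL2, which maintains epithelial gene expression, was the 1 gene that fell in QRICH1 KO, with 71.2 ± 3.99 CPM in QRICH1 KO Tm and 96.0 ± 9.62 CPM in QRICH1 KO DMSO (log2 fold change -0.43, adjusted p = 0.0110, edgeR). That call was lost without QRICH1 KO Tm library 3 (0.0504) or QRICH1 KO DMSO library 2 (0.0674). In WT 4 fell and 1 rose. Of all genes tested, 15.6% were called in QRICH1 KO and 23.8% in WT, and the list's median log2 fold changes were -0.0941 in QRICH1 KO and -0.0321 in WT. GRHL2 fell to 58.5 ± 4.50 CPM in WT Tm, against 94.6 ± 3.78 CPM in WT DMSO (-0.70, adjusted p = 0.000128), HNF4A fell by 0.90 (adjusted p = 0.0111) and ELF3 fell by 0.60 (adjusted p = 0.00978) on the log2 scale. The HNF4A call was lost without WT Tm library 3 (0.0559) or WT DMSO library 1 (0.0561), and the ELF3 call without WT Tm library 1 (0.0686). The number that rose in WT was 0 without WT DMSO library 2, and the number that fell in QRICH1 KO was 2 without QRICH1 KO DMSO library 3. No gene of the list was called between genotypes in either treatment. Of all genes tested, 1.17% were called between genotypes under Tm and 0.0971% under DMSO.

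**Figure D5:**
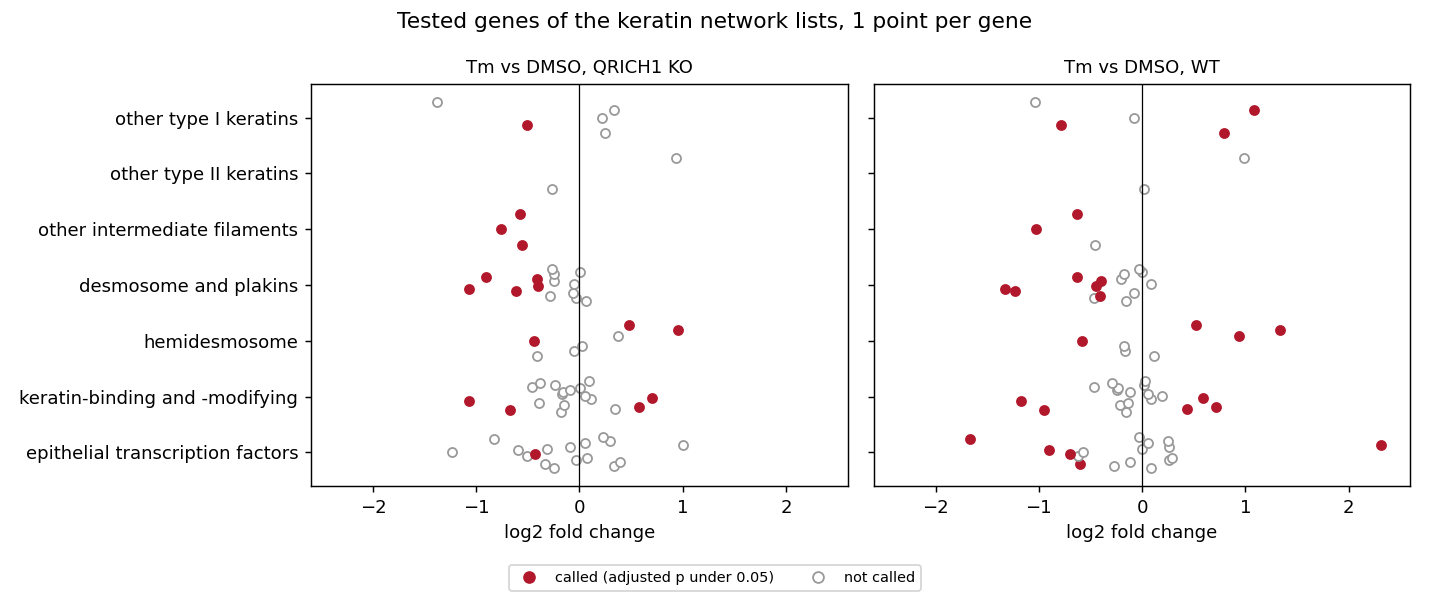
Log2 fold change under Tm (horizontal axis) of every tested gene of 7 lists around the keratin network, in QRICH1 KO (left) and WT (right), 1 point per gene, filled where called by edgeR. Called desmosome and plakin genes all lie left of 0, and hemidesmosome genes lie on both sides.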

How the data were processed

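RNA was measured in 12 libraries of HT29 cells prepared, per the labels' protocols, by a modified Smart-seq2 and Nextera XT method and sequenced on an Illumina NextSeq. The authors deposited raw read counts per gene. Trimmomatic, STAR, DESeq2 and the hg38 build are named in the submitters' processing notes. Not given in the sources used here were the counting tool, how it treated strand and reads with several matches, and the annotation it used. Of 20015 genes, 19893 matched the symbol table and 19972 matched GENCODE 29, which gave positions, lengths and coding sequences. No column belonged to another series.

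Counts were tested with edgeR 4.0.16 (R 4.3.3, limma 3.58.1): TMM factors, filterByExpr with a minimum count of 10, which kept 11323 genes, quasi-likelihood tests on 4 group means over all 12 libraries, and Benjamini-Hochberg adjustment over all genes tested. Genes with an adjusted p under 0.05 were called. Levels are TMM-scaled counts per 1000000 (CPM), and lengths are those of all annotated exons or of the coding sequence. The type I to type II balance and the ratios were described without a test. The 3 genes most like each keratin were the tested genes with a mean of at least 10 CPM whose centred log2 CPM (prior count of 2) differed least. From each gene list, up to 3 called genes in each direction with a mean of at least 10 CPM were named, by size of change. Each group's 3 libraries are biological replicates by the series' design text. Within groups, pairs of libraries differed by more than counting noise (chi-square per degree of freedom 8.64 to 35.8 over genes with at least 50 counts). Floors of 3 counts cover counting error only, since the reads carry no molecular identifiers. DESeq2 1.42.0, other scalings, no filter, the 2 groups compared alone, a replicate block and leaving out libraries were alternatives. Replicate numbers did not pair the libraries over all 4 groups, since those of WT Tm went with other numbers, so the main fit has no block. Libraries 1 and 3 of QRICH1 KO Tm, QRICH1 KO DMSO and WT DMSO did go with their own number. Spread shared in that way counts as residual spread in the main fit. The members and the gene lists were chosen with earlier results of these data known. Some genes and sequences that these rules would name are not reported here.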

Additional observations from a re-analysis of the deposited data

How the results depend on the processing

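The direction of KRT19, KRT8 and KRT18 under Tm held in both genotypes under all 20 alternatives. The KRT19 call was lost in 7 of 20 alternatives in QRICH1 KO (adjusted p = 0.0545 to 0.167, edgeR) and in 3 of 20 in WT (0.0663 to 0.148), each of which left out 1 library, and its log2 fold change then ranged from -0.76 to -0.476 in QRICH1 KO and from -0.801 to -0.391 in WT over all libraries left out. Calls were gained for KRT8 under total-count scaling (-0.442 in WT, -0.365 in QRICH1 KO), for KRT18 (-0.42 in WT) and for KRT20 between genotypes under Tm (0.515 with total counts, 0.454 with no filter). Values near 0 changed sign: KRT23 in WT (-0.0969 with total counts, -0.501 to 0.555 leaving out 1 library), KRT20 in QRICH1 KO (-0.0665 with total counts, -0.00262 without both libraries 3 of QRICH1 KO, -0.0901 to 0.152) and in WT (-0.169 to 0.0794), and KRT7 between genotypes under Tm (-0.11 without both libraries 3, -0.105 to 0.212). Between genotypes under DMSO the ranges were -0.00629 to 0.345 for KRT8, -0.0103 to 0.27 for KRT18 and -0.667 to 0.387 for KRT23. For the interaction they were -0.205 to 0.147 for KRT8, -0.0814 to 0.202 for KRT18, -0.214 to 0.196 for KRT19 and -0.0467 to 0.235 for KRT20, and KRT8 was at -0.00606 with DESeq2's size factors in edgeR, -0.00576 with no filter and -0.00534 with DESeq2.

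Counts of all genes called moved more. Under Tm between genotypes 132 became 279 with no filter, 289 with DESeq2 and 56 to 160 leaving out 1 library: 64, 56 and 66 without QRICH1 KO Tm libraries 1 to 3 and 60, 61 and 78 without WT Tm libraries 1 to 3. Under DMSO 11 became 138 with no filter, 60 with DESeq2, 6 with the compared groups alone, 59 without both libraries 3 and 5 to 39 leaving out 1 library, with 39 without QRICH1 KO DMSO library 3 and 5 without WT DMSO library 2. The interaction count of 0 became 5 with total counts, 44 with no filter, 46 with DESeq2 and 0 to 4 leaving out 1 library (4 without WT DMSO library 3). The Tm count in QRICH1 KO was 1109 to 1858, lowest without QRICH1 KO DMSO library 2. The balance in QRICH1 KO Tm, QRICH1 KO DMSO, WT Tm and WT DMSO was 0.804, 0.7695, 0.7737 and 0.7853 with coding lengths and 0.8299, 0.7936, 0.7991 and 0.8104 with principal transcript lengths, an alternative chosen after seeing the data. Among the named genes of the lists, 695 of 780 values kept their call, 85 lost it and 0 changed sign. The cause of these changes was not tested.

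Same-numbered libraries of different groups correlated at -0.186 to 0.265 in their deviations from the group means, with 6 of 18 pairs over 0.1. Differently numbered ones reached -0.241 to 0.226, with 6 of 36 over 0.1. Libraries 1 and 3 of QRICH1 KO Tm went with the same number in QRICH1 KO DMSO (0.213 and 0.265) and in WT DMSO (0.134 and 0.119). WT Tm library 2 went instead with library 1 of QRICH1 KO Tm, QRICH1 KO DMSO and WT DMSO (0.198, 0.226 and 0.164). WT Tm library 1 went with library 3 of the same groups (0.159, 0.219 and 0.118). Of 12 libraries, 1 correlated best with its own number in every group. The source of these correlations was not tested. With the replicate block the count between genotypes under DMSO was 17, KRT19 was at -0.601 in QRICH1 KO and -0.606 in WT, and the KRT8 interaction was -0.0177.

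KRT7, with 10 to 38 reads, and KRT23, with 2 to 18, are limited by depth. Absolute levels of KRT8 and KRT18 are uncertain, since both share sequence with other loci and how such reads were counted is not given. The part of shared sequence in their differences between groups was not tested.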
